A study of Mus musculus with 3 samples.

Results

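A set of 43 genes typical of macrophages was followed in RNA of mouse embryonic fibroblasts (MEF) and of mouse embryonic stem (ES) cells. The genes were chosen by name as a list, with earlier results of these data known. Each was found on the arrays by its symbol or an older or newer synonym, such as Sfpi1 for Spi1. All 43 were among the 27670 gene names on the arrays, with 76 probes between them. Each gene was represented by its brightest probe, and all 43 passed the filter on dim probes through the MEF channel, which was well above background for each of them on all 3 arrays.

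The study set the expression of ES cells against that of MEF on 3 two-colour whole mouse genome arrays. Each array carried total RNA of 1 ES cell replicate labelled with Cy3 (green) and MEF RNA labelled with Cy5 (red), with no dye swap. These dyes follow the sample labels; a line of the design text gives the Cy5 sample another name, mix2, so every MEF value rests on the sample labels. ES cells were grown in Knockout DMEM with defined serum and leukemia inhibitory factor, MEF in DMEM with fetal bovine serum and non-essential amino acids, and both were untreated. Strain, passage, feeder cells, embryo stage and the number of embryos behind the MEF are not given in the sources used here.

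These points limit both groups as models. The MEF RNA counts as 1 control, and no test here includes its spread. Nothing says that the ES cell replicates were separate cultures. The p-values therefore measure the spread between arrays alone, and that spread may be technical. Without a dye swap, a dye effect on a single probe cannot be told apart from a difference between the cells. A bulk culture also mixes cell types, and fewer cells of a type and less RNA per cell cannot be told apart.

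Macrophages are phagocytes that arise from yolk sac, fetal liver and bone marrow progenitors and settle in nearly every tissue of the embryo. Their growth and survival depend on the receptor tyrosine kinase CSF1R, and the ETS factor PU.1 (Spi1) drives much of their gene programme. They recognise opsonised particles, lipids and bacterial products through Fc, scavenger and pattern recognition receptors, many of which signal through the ITAM adaptors FcRγ (Fcer1g) and DAP12 (Tyrobp), and they make complement C1q, lysozyme and the phagocyte oxidase.

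PU.1 binds purine-rich sites with the core GAGGAA, and such sites are known in promoters of myeloid genes. RefSeq promoters (assembly GRCm38.p6) matched 33 of the 43 genes by symbol; Alox5ap, C1qa, Cd14, Cd86, Csf1r, Emr1, Msr1, Ncf4, Spi1 and Tyrobp were not matched. The 250 bases before any annotated start held GAGGAA, on either strand, in 18 of 33 genes (54.5%) and in 25.9% of 27025 genes of the table. The sequences printed here are short windows around that core in 6 genes that were among those lower in ES cells and in Laptm5, which was not. Capitals mark the core, GAGGAA or its reverse complement TTCCTC, and each window is written 5′ to 3′ on the strand of its gene.
C1qb, chr4:136886210-136886245, minus strand: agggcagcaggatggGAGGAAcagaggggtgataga
Cd53, chr3:106790168-106790203, minus strand: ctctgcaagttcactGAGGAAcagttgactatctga
F13a1, chr13:37050290-37050325, minus strand: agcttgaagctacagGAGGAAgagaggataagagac
Fcgr1, chr3:96294004-96294039, minus strand: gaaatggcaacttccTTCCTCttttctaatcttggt
Trem2, chr17:48346346-48346381, plus strand: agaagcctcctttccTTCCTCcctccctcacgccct
Vav1, chr17:57279074-57279099, plus strand: gttacagtcacagaaGAGGAAgtggt
Laptm5, chr4:130913263-130913298, plus strand: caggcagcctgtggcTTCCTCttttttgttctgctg

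The core began 30 bases before the start in C1qb, 39 in Cd53, 66 in F13a1, 55 in Fcgr1, 40 in Trem2, 11 in Vav1 and 38 in Laptm5. A match of letters is a description of the promoter and not a measured binding site. The longer form GAGGAAGT, which contains the core, was found in C1qc, Cd37 and Vav1 (9.09% of the 33, 2.79% of all genes). Other letters searched on both strands were TGANTCA, the site of AP-1, in 4 of 33 genes (12.1%, 7.82% of all genes), TTGCNNAA, a C/EBP palindrome, in 3 (9.09%, 10.8% of all genes), the TATA box TATAAA in 3 (9.09%, 14.3% of all genes), and TCACGTGA, an E-box of MiT factors, in 0 (0.907% of all genes). Genes with more annotated starts had more bases searched, among the 43 genes as in the whole table.

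Of the 43 macrophage genes, 41 were lower in ES cells than in MEF and 0 were higher, by limma at an adjusted p under 0.05 and a change of at least 2-fold. Over all 19492 genes tested, 22.5% were called lower and 20.4% higher. The list was drawn with earlier results of these data known, so these shares give a scale and are not a test of the list. The median log2 ratio of ES cells over MEF was -3.98 for the macrophage genes, a fold of 15.8 in favour of MEF, and -0.05 for all genes tested. Every one of the 43 genes had a ratio below 0 on all 3 arrays; with arrays centred on their medians, Laptm5 alone turned above 0. Adjusted p-values (limma) of the called genes ran from 1.62e-07 to 6.00e-04 for Spi1. All alternative settings kept the sign of the median, which moved between -3.48 and -4.62, and 41 genes were called lower under every setting that kept the fold minimum, except 33 where both channels had to be above background.

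The differences were large. Fitted ratios at least 32-fold lower in ES cells were found for 10 of the 43 genes, against 72 of 19492 genes tested (0.369%), and fitted ratios at least 8-fold lower for 34, against 757 (3.88%). With the 6 genes that were dim in ES cells on all arrays set at the lower limit of their fold, these counts were 10 and 33, and the median ratio was -3.97; Cd180, with a limit of 7.90-fold, made the difference. Of the others, Cd68, Cd300a and Dock2 were between 4- and 8-fold lower, Spi1, Was and Arhgdib between 2- and 4-fold, Cd86 had only a limit of at least 3.22-fold, and Cd37 and Laptm5 were not called. The SD between arrays was 0.04 on the log2 scale for the median macrophage gene and 0.03 for the median gene tested.

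**Figure D1:**
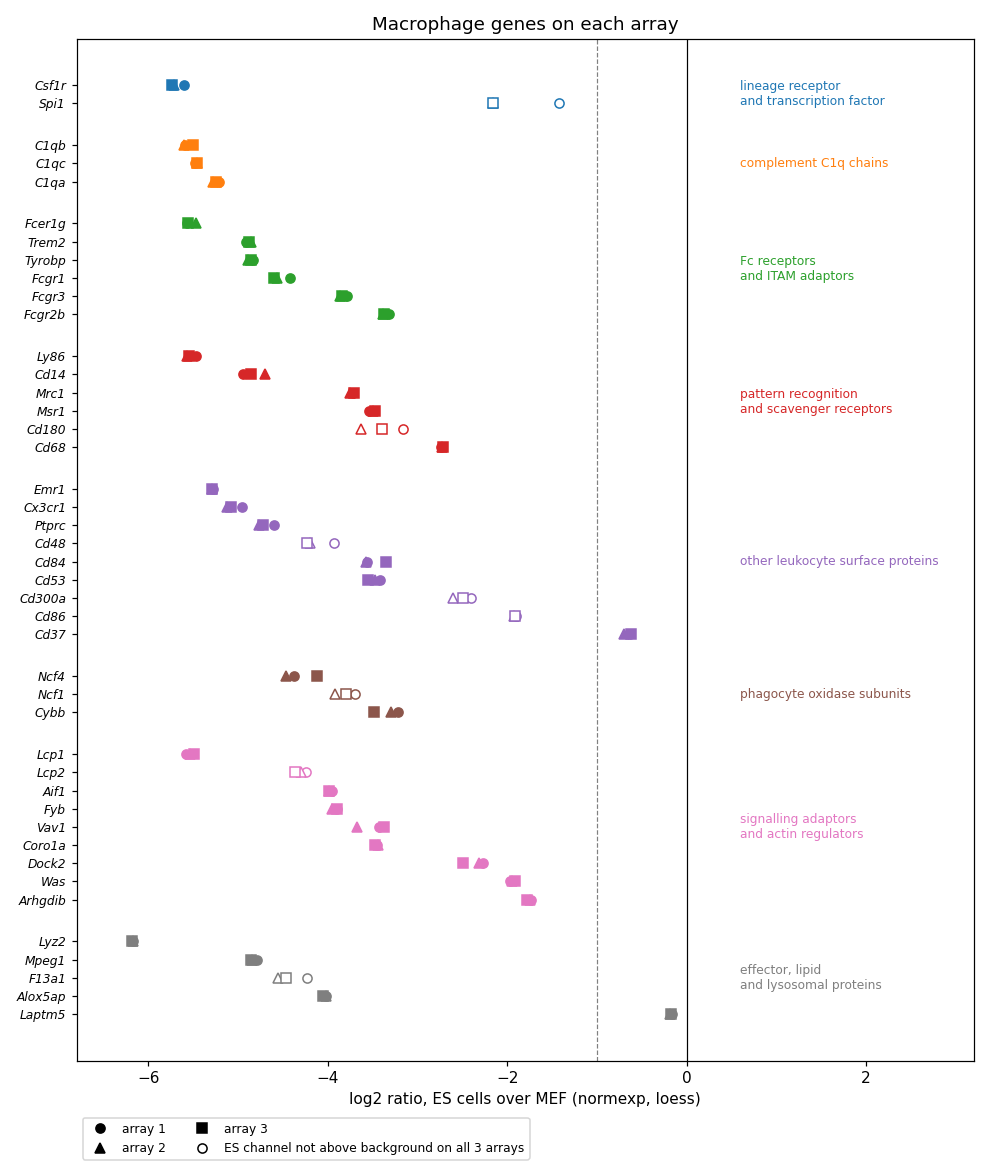
Log2 ratio of ES cells over MEF of each of the 43 macrophage genes on each of the 3 arrays, grouped by role; symbols mark arrays 1, 2 and 3, open symbols mark genes whose ES cell signal was too dim on at least 1 array, and the dashed line stands at 2-fold lower. All points lie below 0, most of them between -3 and -6, with Cd37 and Laptm5 right of the dashed line and Spi1 the most scattered.

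In the ES cell channel, 35 of the 43 genes were above background on all 3 arrays. The channel was dim on every array for Cd180, Cd48, Cd86, F13a1, Lcp2 and Ncf1, while Cd300a was above background on 2 arrays and Spi1 on 1. For the 6 genes without a signal above background in ES cells, only a lower limit of the fold is given, computed as the mean normalised MEF level against the higher of the lowest well-measured ES cell signal and the probe's own. F13a1, the A subunit of coagulation factor XIII, was lower in ES cells by at least 17.7-fold (limma adjusted p = 1.60e-06; normalised log2 levels 11.0 in MEF and 6.58 in ES cells). Lcp2, the adaptor SLP-76, was at least 19.5-fold lower (limma adjusted p = 2.22e-07; 11.2 and 6.88), and Cd48, a ligand of the SLAM family, at least 15.7-fold lower (limma adjusted p = 1.88e-06; 10.9 and 6.76).
Ncf1, the oxidase subunit p47phox, was at least 11.7-fold lower (limma adjusted p = 7.68e-07; normalised log2 levels 10.3 and 6.52). Cd180, a Toll-like receptor homologue, was at least 7.90-fold lower (limma adjusted p = 1.08e-05; 9.76 and 6.36). Cd86, a costimulatory ligand, was at least 3.22-fold lower (limma adjusted p = 2.29e-07; 8.48 and 6.56). These 6 genes were thus above background in MEF alone, and how much lower they are in ES cells is not known beyond these limits.

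**Figure D2:**
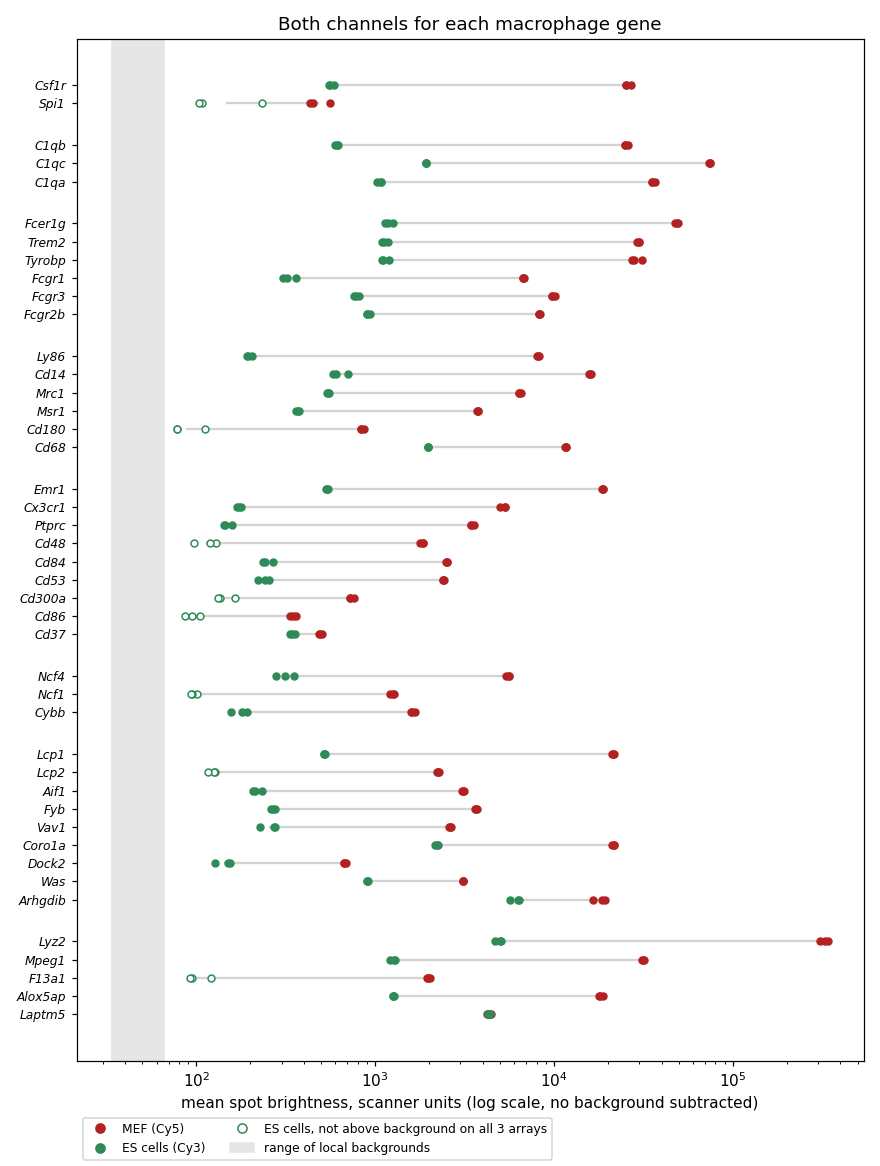
Mean spot brightness of each of the 43 macrophage genes in the MEF channel (red) and in the ES cell channel (green) on each of the 3 arrays, in scanner units on a log axis without background subtraction; open green points mark genes too dim in ES cells on at least 1 array, and the grey band is the range of local backgrounds of these spots, 34.0 to 66.0. The channels lie far apart for most genes and meet for Laptm5.

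Csf1r, the receptor for the macrophage growth factors CSF1 and IL-34, was among the 30 lowest ratios of all genes. Brightness is given in scanner units before background subtraction and dye normalisation. The MEF brightness of Csf1r was 25227, 25345 and 27128 on arrays 1, 2 and 3, and its ES cell brightness 590, 551 and 562. The groups were far apart on each array, with log2 ratios of -5.60, -5.72 and -5.74 (mean -5.69 ± 0.075 SD, n = 3; 51.5-fold; limma adjusted p = 1.92e-07). The lineage factor Spi1 had a dim probe, at 560, 434 and 451 in MEF against 234, 108 and 104 in ES cells. Array 1 stood apart, with both channels higher and a ratio of -1.42 against -2.16 and -2.15 (mean -1.91 ± 0.43 SD, n = 3; limma adjusted p = 6.00e-04). With the scanner software's processed signals, Spi1 had a ratio of -3.42.

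The 3 chains of C1q, the recognition unit of the classical complement pathway, gave nearly the same ratio. C1qa read 35164, 35194 and 36768 in MEF and 1076, 1031 and 1074 in ES cells, C1qb 25894, 25094 and 25053 against 614, 594 and 617, and C1qc 75039, 73434 and 75033 against 1914, 1922 and 1916. The ratios were -5.22, -5.29 and -5.25 for C1qa, -5.59, -5.61 and -5.50 for C1qb, and -5.48, -5.46 and -5.46 for C1qc, or 38.1-, 47.4- and 44.2-fold higher in MEF. All 3 chains were lower in ES cells on every array and all lay within 0.32 log2 units of each other in their means.

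All 6 Fc receptor and ITAM genes were lower in ES cells, with a median of -4.69. Fcer1g, the FcRγ chain that carries the signal of the activating Fc receptors, read 47563, 48481 and 49687 in MEF and 1143, 1253 and 1175 in ES cells. Its ratios were -5.57, -5.47 and -5.56 (mean -5.53 ± 0.056 SD, n = 3; 46.3-fold; limma adjusted p = 1.71e-07). Trem2, a lipid receptor that pairs with DAP12, read 29079, 29974 and 29913 against 1090, 1183 and 1127, with a mean ratio of -4.88 ± 0.029 (SD, n = 3).
Its partner Tyrobp, which encodes DAP12, had almost the same ratio. It read 27495, 28078 and 31223 against 1101, 1087 and 1198 and had a mean ratio of -4.86 ± 0.025 (SD, n = 3). Of the Fc receptors for IgG, Fcgr1, the high-affinity receptor, had a ratio of -4.53, Fcgr3, an activating low-affinity receptor, -3.83, and Fcgr2b, the inhibitory one, -3.35. The order of Fcgr1 and Fcgr3 rests on the choice of probe, since their second probes gave -3.61 and -3.59. The Fcgr2b probe was printed 10 times on each array, and its spots differed by SDs of 0.038, 0.047 and 0.019 within arrays.

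The 6 pattern recognition and scavenger receptors were all lower in ES cells, over a wide range. Ly86, the MD-1 partner of CD180, read 8067, 8192 and 8278 in MEF and 205, 196 and 192 in ES cells, with a mean ratio of -5.53 ± 0.052 (SD, n = 3; limma adjusted p = 1.64e-07). Cd14, the lipopolysaccharide co-receptor, read 15704, 16031 and 16013 against 582, 702 and 608, with a mean ratio of -4.84 ± 0.12 (SD, n = 3). Both were thus low in ES cells on every array, though above background there. The mannose receptor Mrc1 had a ratio of -3.73, the class A scavenger receptor Msr1 -3.50 and Cd68, a glycoprotein of macrophage late endosomes, -2.73, the smallest of the group.

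Of the 9 other leukocyte surface genes, 8 were lower in ES cells, with a median of -3.50. Emr1, which encodes the F4/80 antigen of mouse macrophages, read 18799, 18461 and 18907 in MEF and 543, 537 and 531 in ES cells. Its ratios of -5.28, -5.29 and -5.29 had the smallest SD of all 43 genes (mean -5.29 ± 0.0054 SD, n = 3; limma adjusted p = 1.62e-07). The fractalkine receptor Cx3cr1 read 5025, 5351 and 5321 against 174, 178 and 169, with a mean ratio of -5.05 ± 0.084 (SD, n = 3).
Ptprc, the pan-leukocyte phosphatase CD45, was also lower in ES cells on each array. It read 3443, 3444 and 3567 against 159, 143 and 145 and had ratios of -4.60, -4.77 and -4.72. Its probe was printed 10 times, and 9, 9 and 10 usable spots gave SDs of 0.11, 0.085 and 0.082 between single spots within arrays. The SD of 0.089 between arrays is that of means over these spots, so it is not the same measure as the SDs of single spots. Cd84, a SLAM family receptor, had a ratio of -3.50 and Cd53, a leukocyte tetraspanin, one of -3.48. Cd300a, an inhibitory receptor, had -2.50, but its second probe gave -0.37, and the call was lost where both channels had to be above background, since that second probe then stood for the gene.
Cd37, another leukocyte tetraspanin, was the exception among the surface genes. It read 503, 489 and 495 in MEF and 358, 334 and 342 in ES cells, with ratios of -0.63, -0.69 and -0.62. It was lower in ES cells on all 3 arrays (limma adjusted p = 1.31e-05), but by 1.56-fold, less than the 2-fold minimum.

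The phagocyte oxidase makes superoxide from a membrane flavocytochrome and cytosolic subunits. All 3 oxidase genes were lower in ES cells. Ncf4, the cytosolic subunit p40phox, read 5641, 5422 and 5599 in MEF and 312, 278 and 351 in ES cells, with a mean ratio of -4.32 ± 0.18 (SD, n = 3; limma adjusted p = 2.17e-06). Ncf1 read 1217, 1252 and 1269 in MEF, and its ES cell values of 101, 95.3 and 93.0 were not above background. Cybb, the catalytic subunit gp91phox, had a ratio of -3.33 ± 0.14 (SD, n = 3). The other subunits and the GTPases of the complex were lower in ES cells too, 5 of 5, among them Cyba (-2.73), the p22phox partner of gp91phox, and the GTPase gene Rac2 (-3.75). Nox4 (-1.46) and Rac1 (-1.62), which many cell types express, had the smallest changes of the 5, and the call of Rac1 was lost when all its probes were averaged (-0.69).

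All 9 genes of signalling adaptors and actin regulators were lower in ES cells, with a median of -3.49. Lcp1, the leukocyte actin bundler L-plastin, read 21804, 21131 and 21309 in MEF and 521, 519 and 522 in ES cells (mean ratio -5.54 ± 0.041 SD, n = 3; 46.4-fold; limma adjusted p = 1.62e-07). Lcp2 read 2248, 2206 and 2290 in MEF, while its ES cell values of 127, 126 and 116 were not above background. The calcium-binding protein gene Aif1 (IBA1) had a ratio of -3.98, the adaptor gene Fyb -3.91, the exchange factor gene Vav1 -3.49 and the coronin gene Coro1a -3.46.
The smallest changes of this group were those of Dock2 (-2.36), an exchange factor for Rac, Was (-1.94), the Wiskott-Aldrich syndrome protein, and Arhgdib (-1.75), a GDP dissociation inhibitor of blood cells. Arhgdib was bright in both channels, at 16539, 18520 and 19285 in MEF and 5657, 6347 and 6293 in ES cells.

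Among the effector genes, Lyz2 had the lowest ratio of the 43. This gene encodes the lysozyme of myeloid cells, and its probe, on mm7 chr10:116785279-116785338, read 309394, 329319 and 339821 in MEF and 4706, 5036 and 5002 in ES cells. The mean ratio was -6.18 ± 0.011 (SD, n = 3; 72.3-fold; limma adjusted p = 1.62e-07), the 17th lowest of all genes tested. Mpeg1, the pore-forming protein perforin-2, read 30961, 32012 and 31533 against 1276, 1284 and 1217, with a mean ratio of -4.83 ± 0.034 (SD, n = 3). Alox5ap, the protein that presents arachidonate to 5-lipoxygenase, had a ratio of -4.03.
Laptm5, a lysosomal membrane protein of haematopoietic cells, did not follow the others. It was bright in both channels, at 4248, 4262 and 4466 in MEF and 4318, 4282 and 4400 in ES cells. The ratios were -0.16, -0.18 and -0.17 (limma adjusted p = 2.03e-04), a 1.13-fold difference, and the sign turned to 0.09 when arrays were centred on their medians, a setting that moves the median of all genes to 0.11. Its second probe gave -0.38.

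Different probes of a gene did not give the same ratio. Beside the brightest probes, 27 of the 43 genes had 33 other probes. All 33 had a ratio below 0, as did 49.6% of all probes on the arrays, 28 were at least 2-fold lower (15.1% of all probes), and 31 were above background in MEF on all 3 arrays (66.7% of all probes). Their median ratio was -2.50. The ratio was smaller than that of the brightest probe for 30 of the 33, by over 1 log2 unit for 15, and larger for 3, those of Aif1, Msr1 and Laptm5, while 13 lay within 0.5.

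The spread between probes changed the size of some of the leading ratios. Csf1r had other probes at -4.06 and -1.01, and the mean over its probes was -3.59. Cx3cr1 had -1.11, Emr1 -2.24 and Lyz2 -4.15. Ptprc had -2.34, -1.45 and -0.29, the last from a probe above background in MEF on 0 arrays, and the mean over its tested probes was -2.83. Fcer1g (-5.10), Lcp1 (-5.29) and Trem2 (-4.08) had second probes with ratios that were also low. None of the 76 probes shared 20 bases in a row with a probe of another gene on the arrays, and shorter matches were not counted. Probes were compared with probes and not with transcripts, so hybridisation to the RNA of a related gene was not tested.

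**Figure D3:**
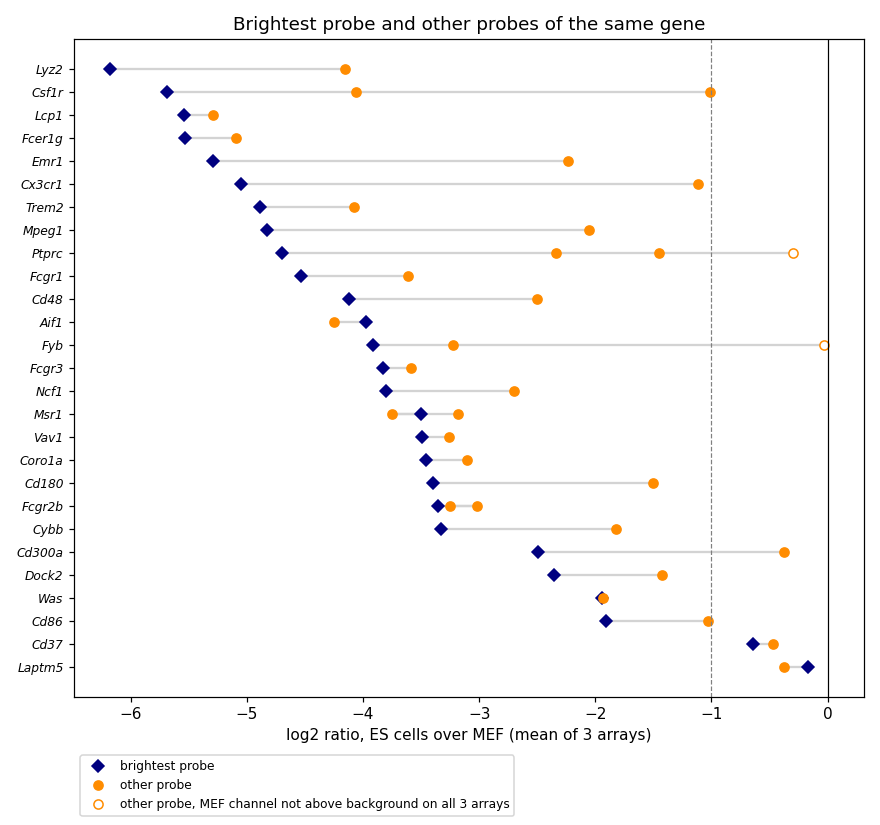
Log2 ratio of ES cells over MEF for the brightest probe (diamonds) and every other probe (circles) of the 27 macrophage genes with more than 1 probe, as means of 3 arrays; open circles mark probes not above background in MEF on all 3 arrays. All other probes lie below 0, and 30 of 33 lie right of the diamond of their gene.

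The ligands and receptors of the colony-stimulating factors were looked at beside Csf1r. Of 11 such genes, 8 were tested, 5 were lower in ES cells and 0 higher. Csf1, the growth factor that CSF1R binds, was lower in ES cells by -2.04 (20797, 20610 and 20922 in MEF), while the other CSF1R ligand, Il34, had a ratio of 0.05 and was not called. Csf2rb, the shared β chain of the receptors for GM-CSF and IL-3, had -2.47, though its 2 other probes gave -0.74 and -0.30. The GM-CSF receptor α chain Csf2ra had -0.03. The brightest probes of Csf2, Csf3 and Il3 were above background in neither channel on any array.

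Of 13 transcription factors of macrophages, 9 were lower in ES cells and 0 higher, with a median of -2.38. The ETS factor gene Fli1 had -4.55. The highest ratios were those of Nr1h3 (-0.71), the lipid sensor LXRα, and Mitf (0.40), and neither was called. Maf was not called with its brightest probe (-0.90), but its 3 other probes gave ratios between -5.27 and -3.09, and the mean over its probes, -3.21, was called lower.

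Signalling genes of the Fc and ITAM pathway were mixed, with 9 of 16 lower in ES cells, 3 higher and 4 not called. The lowest were Hcls1 (-4.21), a cortactin homologue of blood cells, and Pirb (-3.82), an inhibitory receptor. The highest was the lipid phosphatase gene Inpp5d (2.41), known as SHIP, which was thus higher in ES cells.

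Genes that mark macrophages of particular tissues were only partly present. Of 16 genes of resident macrophages, 11 were tested, and 8 of them were lower in ES cells and 0 higher. Stab1, a scavenger receptor for modified lipoproteins, had -5.59, and Ms4a7, a tetraspan membrane protein, -5.00. The probes of Timd4, Vsig4, Lyve1, Cd163 and Adgre4 were not above background in MEF on any array. Of the others tested, the scavenger receptor gene Marco had -0.49 and Cd5l 0.13, and both were not called.
Among 9 genes used to mark microglia, 8 were tested, with 5 lower in ES cells, 2 higher and 1 not called. Olfml3 (-4.51) and Tmem119 (-4.43) had the lowest ratios, but the other probe of Olfml3 gave -0.50. The factor gene Sall1 (1.97) and the fructose transporter gene Slc2a5 (2.81) were higher in ES cells. Of 11 monocyte genes, 7 were tested, with 3 lower, 1 higher and 3 not called. The integrin chain genes Itgb2 and Itgam, whose products form CR3, were lower in ES cells, by 8.02-fold for Itgb2 and with a ratio of -2.72 for Itgam, Chil3 had 0.60, and Spn, the sialophorin CD43, was higher (2.14), though its 2 other probes gave 0.23 and 0.61 and the call was lost with no filter and all probes averaged (0.99). The monocyte genes Ccr2, F10 and Treml4 were not above background in MEF on any array.

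Markers of other blood cells gave few calls in the direction of the macrophage genes. Of 7 tested dendritic cell genes 0 were called, and the class II genes H2-Ab1 (0.28) and H2-Eb1 (0.45) and the invariant chain gene Cd74 (-0.33) were close to equal in both cells. All 7 passed the adjusted p of limma but stayed under 2-fold; with processed signals, Itgax (-1.05) and Ccr7 (1.54) passed the 2-fold minimum. Of 11 neutrophil genes on the arrays, 2 were tested, Prtn3 (-0.39) and Mpo (-0.12), and neither was called.
Most calls in the lymphocyte lists went the other way. Of 7 tested T cell genes 0 were lower and 3 higher in ES cells, with Lat (2.77) and the kinase gene Lck (2.36) the highest, while Cd3e had -0.22 and was not called. Of 6 tested B cell genes, 2 were higher, Cd79b (2.97) and Vpreb1 (1.31), and 1 lower, the factor gene Ebf1 (-1.93). None of the 8 NK cell genes passed the filter, and their summed MEF brightness was 714 to 740 per array.
For the 43 macrophage genes, summed MEF brightness was 821170 to 866617 per array and summed ES cell brightness 38466 to 39116. The sums of the dendritic cell list were 2534 to 2809 in MEF and 2604 to 3100 in ES cells, and those of the neutrophil list 1131 to 1201 and 1194 to 1316. The sums of each list add the brightness of different probes, so they describe each list on these arrays and do not rank the lists.

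Of 4 tested mast cell genes 0 were lower and 1 higher, Hdc (1.32), with Fcer1a at -0.35, Mcpt4 at -0.15 and Cma1 at 0.02. Of 5 tested erythroid genes 0 were lower and 1 higher, Klf1 (1.40), with Slc4a1 at -0.10, Hba-a1 at 0.02 and Gata1 at 0.32. Of 4 tested megakaryocyte genes, only Pf4, platelet factor 4, was lower (-1.65), with Itga2b at -0.71 and Ppbp at -0.51. Of 6 tested endothelial genes, 2 were lower, Emcn (-2.58) and Kdr (-1.40; its other probe gave -0.05, and the call was lost with no filter and all probes averaged, at -0.72), and 3 higher, among them Pecam1 (2.59) and Cldn5 (2.26).
Progenitor genes were split. The bHLH factor gene Lyl1 (-4.45), Gata2 (-2.42) and Cd34 (-1.28) were lower in ES cells, while the receptor gene Kit was higher (4.16), and Myb, whose brightest probe was not above background in MEF, was higher in ES cells by at least 13.1-fold (limma adjusted p = 7.34e-07).

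**Figure D4:**
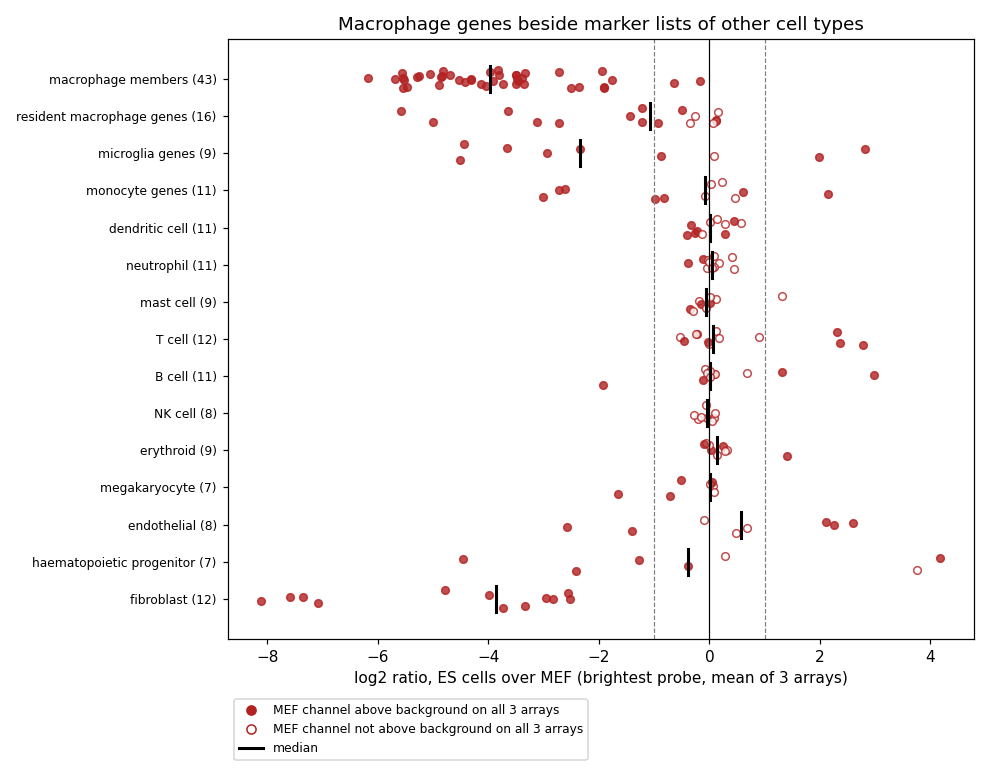
Log2 ratio of ES cells over MEF of the genes of each list, 1 point per gene (mean of 3 arrays), with the number of genes on the arrays in brackets and the median as a black bar; open points mark genes not above background in MEF on all 3 arrays. The macrophage genes lie mostly left of -3, and the dendritic, neutrophil, mast, NK and erythroid lists lie around 0.

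The labels of both cells were checked against their own markers. All 12 fibroblast genes were lower in ES cells, with a median of -3.86 and the lowest ratios for Col1a1 (-8.10) and Col3a1 (-7.59). All 8 ES cell genes were higher, with a median of 3.86 and the largest ratios for Zfp42 (6.33) and Sox2 (5.79). Fibroblast markers were thus high in the same RNA as the macrophage genes, and which cells of the culture the macrophage RNA came from was not tested. Of all gene spots, 68.6% to 70.6% per array passed the background threshold in ES cells and 68.2% to 74.0% did so in MEF.

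Many macrophage genes belong to families with members that other cells use, and 15 such relatives were measured. Of these, 9 were lower in ES cells, 2 higher and 4 not called. T-plastin (Pls3, -3.39) was lower in ES cells and I-plastin (Pls1, 3.36) higher, beside -5.54 for L-plastin (Lcp1). Of the coronins, Coro1b had -1.56 and Coro1c 0.04, beside -3.46 for Coro1a. Vav3 had -2.43 (its other probe gave -0.41) and Vav2 1.14, beside -3.49 for Vav1. The call of Vav2 was lost when its probes were averaged (0.51).
The leukocyte member of a family had the lower ratio in each of these sets, but the differences between relatives were not tested. The same order held for Wasl (0.12) beside Was (-1.94), Dock1 (-0.24) beside Dock2 (-2.36), Aif1l (-1.27) beside Aif1 (-3.98), and Ptpra (-1.55) beside Ptprc (-4.69). Sh3pxd2a had -3.37 beside Ncf1, for which only the limit of at least 11.7-fold is known. The 2 other probes of Sh3pxd2a gave -0.34 and 0.11. Arhgdia (-1.65) stood close to Arhgdib (-1.75). Lyz1, a close copy of Lyz2, had -5.41 beside -6.18, and cross-hybridisation between these copies was not tested. Laptm5 (-0.17) was the exception, with Laptm4a at -2.37 and Laptm4b at 0.79.

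**Figure D5:**
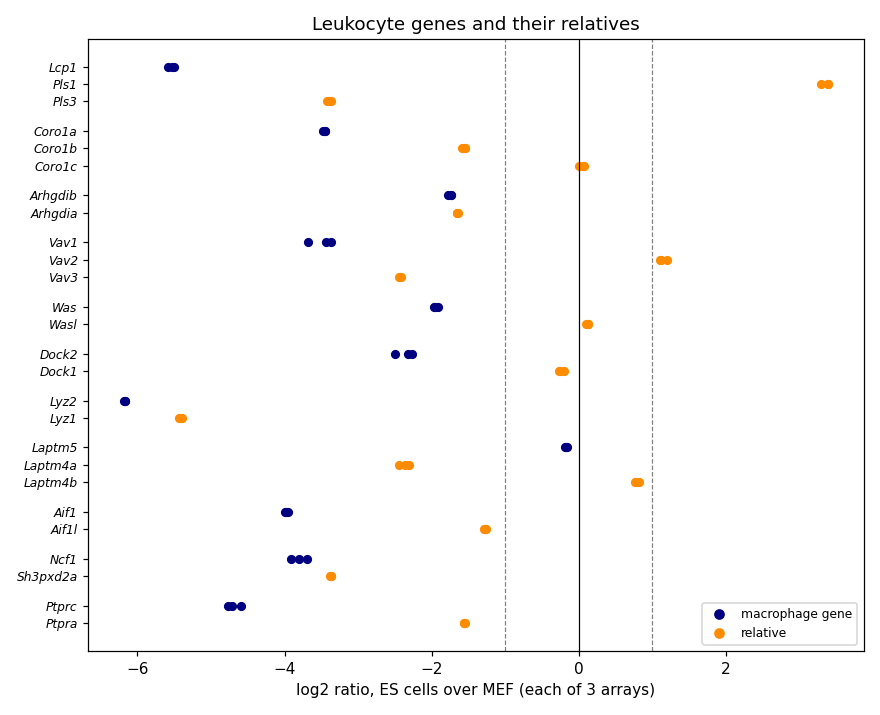
Log2 ratio of ES cells over MEF on each of the 3 arrays for macrophage genes (dark blue) and for relatives of the same family that other cells also use (orange); dashed lines mark 2-fold differences. Lcp1, Coro1a, Vav1, Was, Dock2 and Ptprc lie left of their relatives, and Laptm5 lies between Laptm4a and Laptm4b.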

How the data were processed

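RNA of ES cells (3 replicates, Cy3) and MEF (Cy5) was measured on 3 two-colour arrays. The deposited intensities are mean spot and median background brightness, read by the authors with Agilent Feature Extraction 9.5.3.1, per the file headers. The log10 ratio they deposited is MEF over ES cells of processed, dye-normalised signals, per the file headers. A log2 value table deposited by the authors gives ES cells over MEF; its handling of some probes is unknown. Probe coordinates are on mm7, per the file headers; no annotation of that build was used, so exon or UTR positions are not given.

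Signals were corrected by normexp (offset 50) and loess in limma 3.58.1 (R 4.3.3), with control spots at weight 0 and outlier spots (117 to 144 of 43379 gene spots per array) left out. The offset shrinks ratios of dim genes. Spots of a probe were averaged. Probes well above background in either channel on all 3 arrays were kept (29498 of 41174), and the brightest stood for its gene. Ratios were tested against 0 (lmFit, eBayes, Benjamini-Hochberg) and called at an adjusted p under 0.05 and at least 2-fold. Lower limits of folds came from levels after loess and Aquantile, and without a dye swap are open to dye bias. With 3 arrays, their number limits the precision.

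Gene names came from the RefSeq table of GRCm38.p6, by accession for 22886 probes, symbol for 6648 and synonym for 3109; 8455 kept the name in the file, and 76 were named by the rule for the macrophage genes. Ly6g and Hbb-b1 of the marker lists were not matched. Members and lists were chosen with earlier results of these data known. Values are given in full for the 2 lowest members of each role, for those not called and for key lineage genes, and of each other list the 2 lowest and 2 highest are named, with further genes chosen after their values were seen. Some genes of these lists are not reported here. Alternatives covered background, normalisation, filter, probe choice, the authors' table and leaving out each array.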

Additional observations from a re-analysis of the deposited data

How the results depend on the processing

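The count of macrophage genes called lower in ES cells, 41, was also 41 with each array left out and under the other backgrounds, normalisations and probe choices; it was 33 of 36 where both channels had to be above background and 43 without the fold minimum. The median log2 ratio, -3.98, was -4.44 with processed signals of the scanner software, -3.69 without background subtraction, -4.56 with normexp offset 0, -3.77 with median centring, -3.50 as the mean of all probes, -4.62 in the authors' value table and -3.48 with no filter and all probes averaged, the last chosen after seeing the data. Leaving out 1 array gave medians of -3.99 to -3.97. Genes called over the whole array numbered 8351 and 18605 without the fold minimum. Members of the other lists called lower numbered 71, with 61 to 97 under the alternatives. This count pools all the related and marker lists, among them the fibroblast genes, with 12 of 12 lower, so it describes no single list. Over all genes tested, 22.5% were called lower. Single genes moved more: processed signals gave -5.84 for Cd180 and -4.18 for Cd86, the authors' value table -6.70 for Ncf1, and averaging all probes without a filter -2.39 for Fyb and -2.19 for Ptprc; the cause was not tested. Dim genes are limited by signal over background: the offset shrinks their ratios. Each array pairs both RNAs, and the test of ratios within arrays uses that pairing, so no further block was fitted.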

Other observations

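Some of the macrophage genes are neighbours, on the mm7 probe coordinates of the files and with gaps of at most 1000000 bases. The 3 C1q chains lie within 15.9 kb on chr4:136259100-136274990 with 0 other tested genes between them. Fcgr2b, Fcgr3, Fcer1g, Cd48 and Cd84 lie within 919 kb on chr1:170937333-171856607, together with 26 other tested genes. Of these 26, 5 were lower in ES cells and 2 higher, with a median log2 ratio of -0.22; over all genes tested, 22.5% were lower and 20.4% higher. The lower ones were Fcgr4 (-2.99), Cd244a (-1.93), Pcp4l1 (-1.90), Adamts4 (-1.79) and Ly9 (-1.17), and the higher ones Klhdc9 (1.09) and Usf1 (1.46). Vav1 and Emr1 lie within 162 kb on chromosome 17, Lcp2 and Dock2 within 140 kb on chromosome 11, and F13a1 and Ly86 within 553 kb on chromosome 13, each pair with 0 other tested genes between.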
